A study of Homo sapiens with 4 samples.

Results

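The HOX genes were examined in K562, a line of human leukaemia cells grown from a patient with chronic myeloid leukaemia. The 38 listed HOXA, HOXB, HOXC and HOXD genes, of 20037 protein-coding genes in the RefSeq annotation, were taken by name, and each cluster was taken from its first to its last listed gene with 100 kb on either side (hg38). The measurement was ChIP-seq of H3K27ac, acetylation of lysine 27 of histone H3, which marks active promoters and enhancers. One H3K27ac library came from K562 cells given 1 uM daunorubicin for 18 h, and 1 came from untreated K562 cells. Daunorubicin is an anthracycline that poisons topoisomerase II. Each condition also had 1 input library made without antibody. No allele or transgene is named for the cells, and each group is 1 library of 1 cell line. The study's stated interest is in enhancers that daunorubicin induces in acute myeloid leukaemia, whereas K562 is of chronic myeloid origin.

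HOX genes encode homeodomain transcription factors that give cells their position along the body axis. Within a cluster they share 1 direction of transcription, and in the embryo their order along the chromosome follows the order in which they are used from head to tail. Low-numbered genes act towards the head and high-numbered genes towards the tail and the ends of the limbs. Polycomb complexes keep silent HOX genes covered in methylation of the same lysine 27 that H3K27ac occupies, so a stretch of H3K27ac marks the part of a cluster that is open in a given cell type. Several HOX genes, HOXA9 among them, drive self-renewal in leukaemia.

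With 1 library a group there were no replicates, so no difference below has a replicate check or a p-value, and library and treatment cannot be told apart. The lists held 65118 peaks with daunorubicin and 38626 in untreated cells, a ratio of 1.69, and covered length had a ratio of 1.59. Sequencing depth is unknown, and its part in these numbers was not tested. Peak scores are the authors', and are set beside the percent of peaks in the same list with the same or a lower score. A peak in bulk cells cannot tell more marked cells from a stronger mark per cell. Of 10 K562 and erythroid marker genes, a peak lay no more than 1 kb from an end at 10 with daunorubicin and at 9 in untreated cells, against 62.5% and 58.4% of protein-coding genes. Of 8 lymphoid marker genes, this held for 4 in each library, and MS4A1, a B-cell marker, and IL7R had no peak within 5 kb in either. The inputs held 87 peaks with daunorubicin and 92 in untreated cells, and 0 of them lay in the HOX windows.

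The clusters also carry microRNA genes, of which the miR-196 and miR-10 families are known to act on HOX messages. Their mature forms are shown because the same seed, bases 2 to 8 in capitals, recurs in 3 of the clusters. The sequences are from RefSeq (GRCh38.p14), and all 6 listed microRNA genes had at least 1 mature form there.
miR-196a-5p: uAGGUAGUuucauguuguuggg
miR-196b-5p: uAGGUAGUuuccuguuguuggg
miR-10a-5p: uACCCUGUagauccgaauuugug
miR-196a-5p comes from both MIR196A1, between HOXB9 and HOXB13 on chromosome 17, and MIR196A2, between HOXC10 and HOXC9 on chromosome 12. miR-196b-5p comes from MIR196B, between HOXA9 and HOXA10 on chromosome 7, and shares the seed AGGUAGU. The peak nearest to MIR196A1 was 924 bp away with daunorubicin and 1957 bp away in untreated cells, and these were different peaks. Distances were 1703 bp with daunorubicin and 2240 bp in untreated cells for MIR196A2, and 3622 bp and 3716 bp in the same order for MIR196B. MIR10A, between HOXB4 and HOXB5, lay 854 bp from a peak with daunorubicin and 881 bp from one in untreated cells. The microRNA genes other than MIR196A1 thus had the same neighbouring peak in both libraries.

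The promoters of 20 of the 38 members were in the RefSeq table. Those of 3 members are shown, each as the 250 bases before the start, 5′ to 3′ on the gene's own strand. HOXA13 (chr7:27200092-27200341, minus strand) and HOXD10 (chr2:176116528-176116777, plus strand) are the members whose start had a peak with daunorubicin alone and whose upstream bases lay partly under it. HOXC4 (chr12:54016638-54016887, plus strand) starts beside one of the highest peaks of the HOXC window in both libraries. Capitals mark every match, on either strand, to 7 motifs. These were, in the order searched, TATAAA of core promoters, CCAAT as bound by NF-Y, GGGCGG as bound by SP1, and TGANTCA as bound by AP-1. The search then took AGATAA as bound by erythroid zinc finger factors, TGATTNAT as bound by HOX proteins with a cofactor, and CACGTG, known as the E-box. Matches of separate motifs may overlap.
HOXA13: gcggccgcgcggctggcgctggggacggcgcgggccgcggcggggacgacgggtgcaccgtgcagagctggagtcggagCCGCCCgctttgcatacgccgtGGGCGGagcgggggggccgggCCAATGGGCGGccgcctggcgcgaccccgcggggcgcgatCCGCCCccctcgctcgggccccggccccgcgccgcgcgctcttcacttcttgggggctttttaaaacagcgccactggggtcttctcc
HOXD10: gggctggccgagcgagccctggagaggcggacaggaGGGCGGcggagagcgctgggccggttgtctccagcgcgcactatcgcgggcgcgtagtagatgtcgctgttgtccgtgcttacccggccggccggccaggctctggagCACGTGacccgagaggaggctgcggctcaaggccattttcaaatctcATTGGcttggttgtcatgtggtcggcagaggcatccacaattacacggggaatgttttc
HOXC4: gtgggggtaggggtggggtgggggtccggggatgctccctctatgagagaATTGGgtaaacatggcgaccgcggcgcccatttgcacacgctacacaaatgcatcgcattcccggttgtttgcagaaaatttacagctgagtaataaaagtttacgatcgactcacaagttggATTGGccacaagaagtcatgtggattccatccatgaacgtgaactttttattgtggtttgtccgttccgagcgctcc
HOXA13 held 40 CpG dinucleotides, more than 97.8% of all promoters in the table, HOXD10 held 23 and HOXC4 held 14. The daunorubicin peaks covered 98 of these bases at HOXA13 and 96 at HOXD10, and untreated peaks covered 0 at both. At HOXC4 the 250 bases lay under no peak of either library, since the marked stretch began past the start.

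Among the 20 member promoters, CCAAT was in 17, against 34.5% of the first promoters of 15843 protein-coding genes. CACGTG was in 7, against 7.84%, and GGGCGG was in 10, against 56.0%. TATAAA was in 4 (9.23% of coding promoters) and TGATTNAT in 2 (1.85%). TGANTCA was in 0 of 20, against 5.04%, and AGATAA was in 0 of 20, against 6.84%. HOXC4 and HOXC5 share 1 promoter in this count, and a match is a string of letters, not a measured binding site. Over all 35116 promoters the shares in the order of the search were 10.7%, 32.0%, 42.6%, 6.57%, 9.17%, 2.48% and 6.34%. The median CpG count was 20.5 in the member promoters and 17 in those of coding genes.

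**Figure D1:**
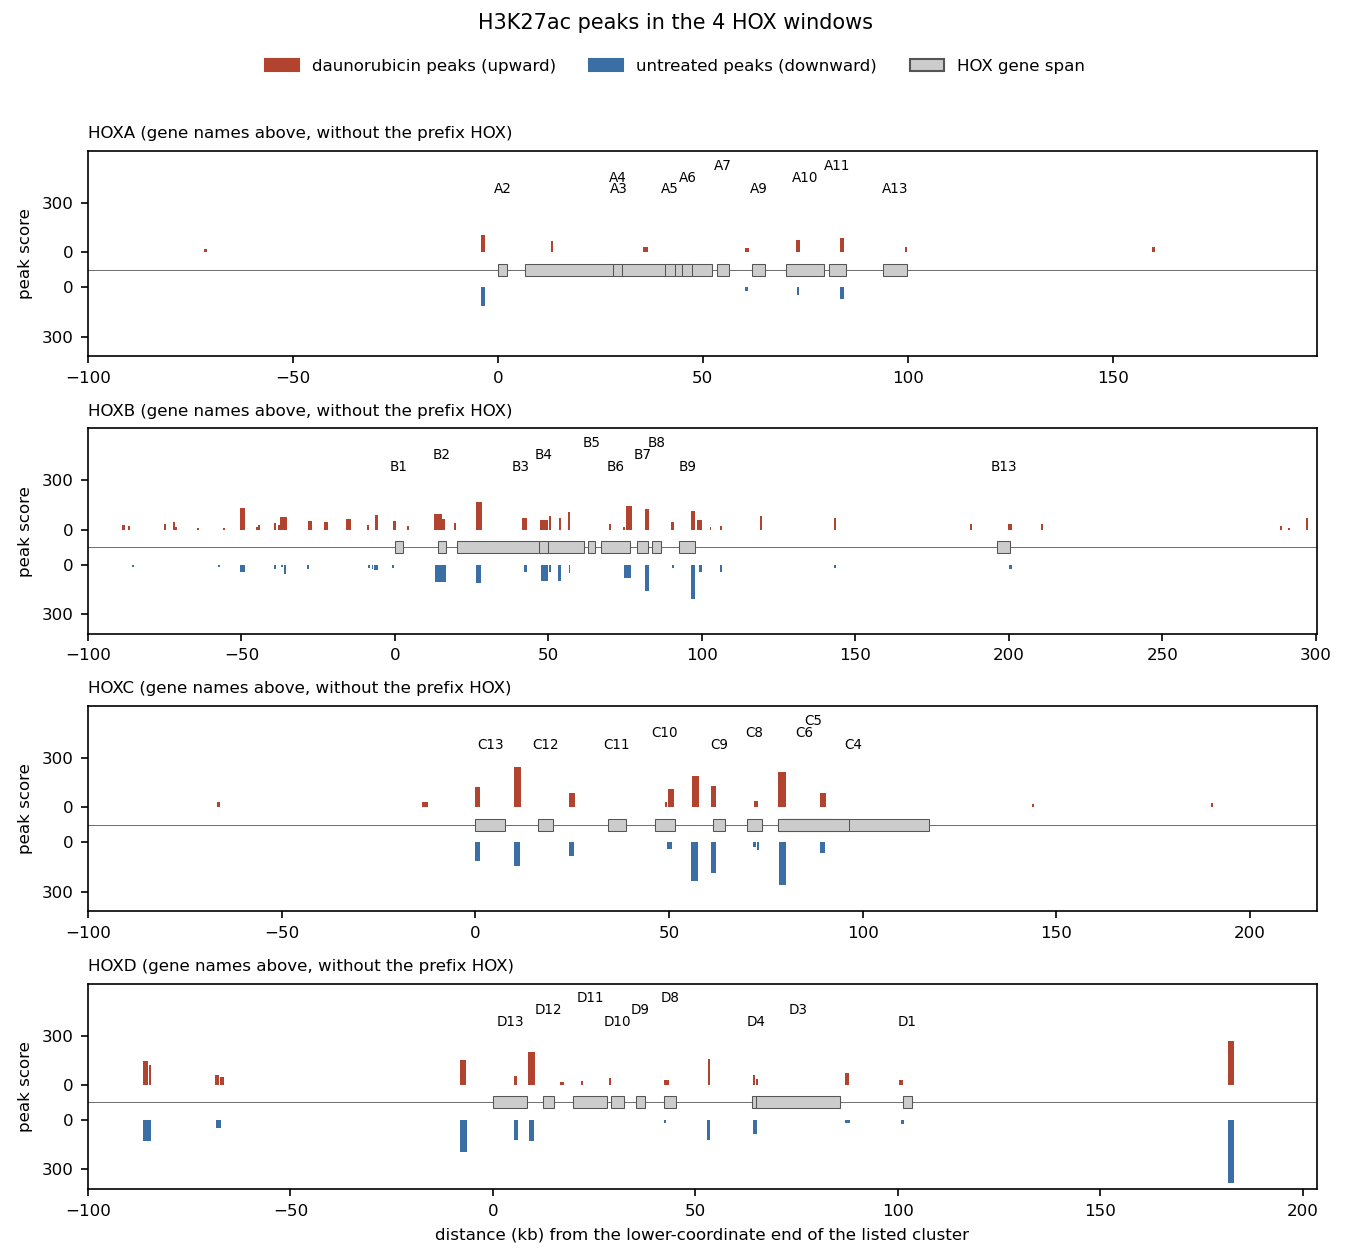
H3K27ac peaks in the 4 HOX windows. The horizontal axis is the distance in kb from the lower-coordinate end of each listed cluster, so the lower flank has negative values. The vertical axis is the authors' peak score. Peaks with daunorubicin point up and untreated peaks point down, each drawn at least 0.6 kb wide, and the listed genes are drawn between them. HOXB carries the most peaks, HOXA the fewest, and the scores of separate lists are not on a shared scale.

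The 4 windows together held 86 peaks over 81028 bp with daunorubicin and 51 peaks over 52838 bp in untreated cells. The ratio of peak numbers, 1.69, was the same as in the whole lists, and that of covered length, 1.53, was close to the 1.59 of the whole lists. The extra marking with daunorubicin in the HOX windows, flanks included, was thus about what the genome as a whole showed, and the clusters differed among themselves. Of the added length, 12886 bp lay in the cluster bodies and 15304 bp in the flanks. In the bodies alone the ratio was 2.44 in HOXA, 1.31 in HOXB, 1.14 in HOXC and 1.43 in HOXD. The median score of HOX peaks was 51 in both libraries, against 41 over all peaks with daunorubicin and 43 over all untreated peaks.

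HOXA, on chromosome 7 (27000354 to 27300091), was the least marked cluster, with 9 peaks over 6990 bp with daunorubicin and 4 peaks over 3020 bp in untreated cells. Its ratio in the full lists was 2.31. Windows of 300 kb were centred on each protein-coding gene, and 17754 of them had untreated marking and so a ratio. Of these, 91.5% had a lower ratio, and the median window had 1.4. HOXB, on chromosome 17 (48428526 to 48828750), was the most marked, with 46 peaks over 41710 bp with daunorubicin and 26 peaks over 25387 bp in untreated cells, a ratio of 1.64. Its peaks covered 10.4% of the window with daunorubicin and 6.34% in untreated cells. Over the windows of all 20037 coding genes, 98.3% and 90.3% were less covered, in the same order. HOXC, on chromosome 12 (53838831 to 54156030), had 14 peaks over 16744 bp with daunorubicin and 10 peaks over 12102 bp in untreated cells, a ratio of 1.38. HOXD, on chromosome 2 (175987487 to 176290907), had 17 peaks over 15584 bp with daunorubicin and 11 peaks over 12329 bp in untreated cells, a ratio of 1.26. When equal numbers of the highest-scoring peaks were taken from both lists, the ratio was 1.35 in HOXA, 1.35 in HOXB, 1.3 in HOXC and 0.985 in HOXD, against 1.22 over the whole lists. At the stricter score, at least 43 in both lists, the ratio was 1.4 in HOXA, 1.79 in HOXB, 1.16 in HOXC and 1.11 in HOXD, against 1.57, so HOXA led in the full lists, HOXB at the stricter score, and HOXA and HOXB were level with equal numbers. The direction in HOXD thus depended on how many peaks each list held.

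**Figure D2:**
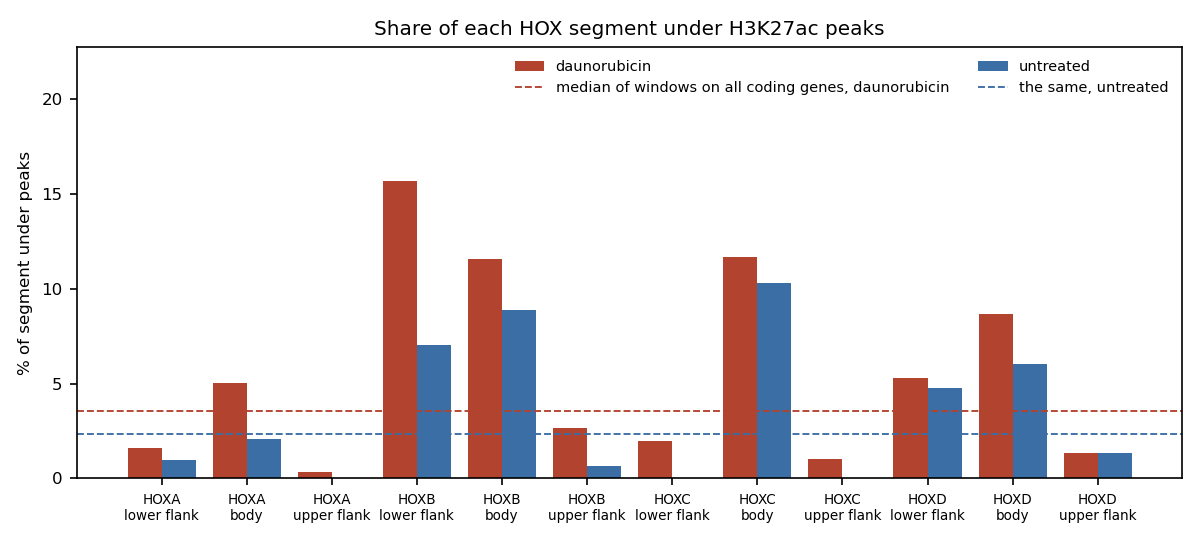
Percent of each HOX segment under H3K27ac peaks, by cluster body (first to last listed gene) and flank (100 kb on the side of lower or higher coordinates), with daunorubicin beside untreated. Dashed lines are the medians of 300-kb windows on all protein-coding genes, 3.57% with daunorubicin and 2.34% in untreated cells. The lower flank of HOXB has the largest gap, 15.7% with daunorubicin against 7.02% in untreated cells.

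In HOXB and HOXC most of the difference lay in the flanks, with 10754 bp more with daunorubicin in the HOXB flanks and 5569 bp more in its body, and 2988 bp and 1654 bp in the same order for HOXC. In HOXA and HOXD most of it lay in the body, with 2972 bp more with daunorubicin in the HOXA body and 998 bp in its flanks, and 2691 bp and 564 bp in the same order for HOXD. The HOXB flank beyond HOXB1, which runs into the immune adaptor gene SKAP1, had 19 peaks over 15733 bp with daunorubicin and 11 peaks over 7016 bp in untreated cells. From HOXB1 to HOXB9 the peaks covered 18.8% with daunorubicin and 16.0% in untreated cells, and in the long interval between HOXB9 and HOXB13 they covered 4.52% and 1.79% in the same order. The HOXC body was nearly alike in both libraries, with 10 peaks each and 11.7% covered with daunorubicin against 10.3% in untreated cells. Untreated cells had 0 peaks in the HOXC flanks, where daunorubicin cells had 2988 bp of marking. In HOXD most of the difference lay on the tail side, HOXD8 to HOXD13, with 5427 bp with daunorubicin and 2886 bp in untreated cells. HOXD1 to HOXD4 had 3003 bp with daunorubicin and 2796 bp in untreated cells.

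Overlapping peaks of both lists were merged by at least 1 bp into 84 regions. Of these, 46 were in both libraries, 35 with daunorubicin only and 3 in untreated cells only. As shares these were 54.8%, 41.7% and 3.57%, against 49.2%, 44.6% and 6.13% over all 67554 regions, so the HOX regions were near the background. In the cluster bodies 13 of 48 regions (27.1%, Wilson 95% interval 16.6 to 41.0) were called with daunorubicin only, and in the flanks 22 of 36 (61.1%, 44.9 to 75.2). These intervals cover counting error only. HOXB held 16 of the 22. With equal numbers of peaks the shares were 18.6% in the bodies and 30.0% in the flanks, against 20.4% over the whole lists. At the stricter score 9 of 34 body regions and 7 of 14 flank regions were called with daunorubicin only, against 40.3% over the whole lists. Without HOXB the shares were 26.9% in the bodies and 54.5% in the flanks of the full lists, but at the stricter score 3 of 17 and 0 of 5, so there the higher share in the flanks rested on HOXB. All 3 regions of untreated cells only lay in the lower HOXB flank. HOX regions called with daunorubicin only had a median score of 32, against 85.5 for the daunorubicin peaks of shared regions, and over all regions these medians were 26 and 76.

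A peak within 1 kb of either annotated end was found at 25 of the 38 members with daunorubicin and at 20 in untreated cells, against the 62.5% and 58.4% of protein-coding genes given above. The 20 were all among the 25. The 5 members with daunorubicin only were HOXA9, HOXA13, HOXB3, HOXD10 and HOXD11, and 0 members had an end peak in untreated cells only, against 4.91% and 0.749% of coding genes. By cluster the counts were 3 of 10 with daunorubicin and 1 of 10 in untreated cells for HOXA, 8 and 7 of 10 for HOXB, 7 and 7 of 9 for HOXC, and 7 and 5 of 9 for HOXD. Counting only transcript starts in the table, 11 of 20 members were marked with daunorubicin and 8 in untreated cells. Over coding genes these shares were 64.7% and 61.3%, with 4.65% marked at a start in 1 library only, whichever it was. With the strand of the cluster taken for the 18 other members, 20 of 38 had a start peak with daunorubicin and 17 in untreated cells. Of the 5 members with an end peak with daunorubicin only, HOXA9, HOXB3 and HOXD11 had no start peak in either library. The 3 of 20 members marked at a start in 1 library only, all with daunorubicin, had their peak at the starts of HOXA13, HOXD10 and an internal transcript of HOXA3. The 13 members with no end peak in either library were HOXA2, HOXA3, HOXA4, HOXA5, HOXA6, HOXA7, HOXA10, HOXB5, HOXB8, HOXC11, HOXC12, HOXD9 and HOXD12. HOXA10 among them had a start peak in both libraries. That peak scored 74 (71.9%) with daunorubicin and 51 (56.3%) in untreated cells, and the marked lengths were 1863 bp and 1528 bp in that order. Of the 4 genes of group 13, which act at the tail and the limb ends, all had an end peak with daunorubicin and 3 in untreated cells, whereas the genes of group 12, HOXC12 and HOXD12, had none.

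**Figure D3:**
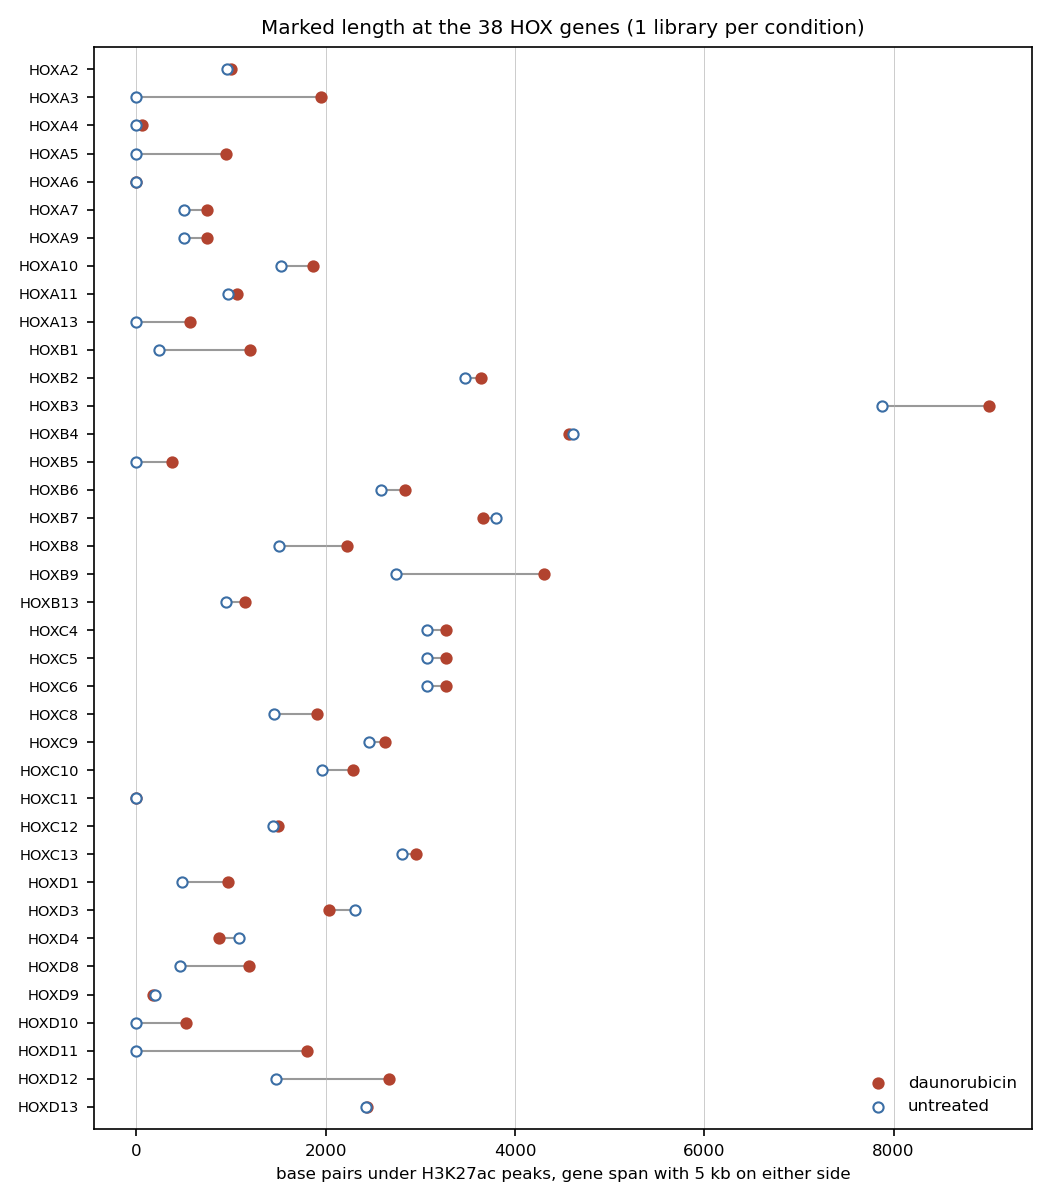
Marked length at each of the 38 HOX genes: base pairs under H3K27ac peaks within the gene extended by 5 kb on either side, with daunorubicin and in untreated cells. HOXB3 is the longest, 9012 bp with daunorubicin and 7883 bp in untreated cells, while HOXA6 and HOXC11 have no marked length in either.

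Marked length, the base pairs under peaks within a gene and 5 kb on either side, was longer with daunorubicin at 31 of the 36 members marked in either library and shorter at 5. Among coding genes marked in either library, 77.9% were longer and 22.0% shorter. Over genes marked in either library the median difference was 246 bp for the 36 members and 421 bp for coding genes, and neighbouring HOX genes share peaks. With equal numbers of peaks 24 were longer and 10 shorter, against 61.3% and 38.6% of coding genes. The members shorter with daunorubicin in the full lists were HOXB4, HOXB7, HOXD3, HOXD4 and HOXD9. With equal numbers HOXA7, HOXA9, HOXB6, HOXD1 and HOXD8 turned to shorter. When both lists were held to scores of at least 43, HOXB6 and HOXC8 turned to shorter and HOXB4 and HOXD3 to longer.

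In HOXA, untreated marking in the body began beside HOXA9, and HOXA2 to HOXA7 held 1954 bp with daunorubicin and 0 bp in untreated cells. Both peaks there lay inside HOXA3, a gene of neck and pharynx formation in mice, whose annotated span also takes in HOXA4, HOXA5 and HOXA6. The one at 27113216 to 27113866 scored 70 (70.3%), and the one at 27135695 to 27136997 scored 33 (41.0%). With equal numbers or at the stricter score HOXA3 had 651 bp with daunorubicin and 0 bp in untreated cells. HOXA7 had 745 bp with daunorubicin and 499 bp in untreated cells, and with equal numbers 0 bp and 499 bp in the same order. HOXA9 had a shared region below its 3′ end: the peak was 929 bp away with daunorubicin (score 26) and 1211 bp away in untreated cells (score 27), so its call turned on the 1 kb limit, and its marked lengths were those of HOXA7 under every filter on peaks. HOXA11, a limb and blood-forming gene, had 1065 bp with daunorubicin and 967 bp in untreated cells, with scores of 87 (76.4%) and 70 (64.4%), the highest in the HOXA body in each library. HOXA13, a gene of digits and the genital tract whose promoter is printed above, had 566 bp with daunorubicin and 0 bp in untreated cells. Its peak, at 27199624 to 27200189, scored 35 (43.9%), below the stricter score. The same peak gave the only end peak of HOTTIP, a long non-coding RNA next to HOXA13. Over the whole window the highest peak of each library, 103 (80.9%) with daunorubicin and 115 (74.2%) in untreated cells, lay in the flank below HOXA2.

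HOXB had marked stretches from HOXB1 to HOXB9 in both libraries, with gaps at HOXB5 and HOXB8, which had no peak within 1 kb in either. HOXB8 had 2226 bp with daunorubicin and 1506 bp in untreated cells within 5 kb. Within 5 kb HOXB5 had 374 bp with daunorubicin and 0 bp in untreated cells. This length was part of a daunorubicin peak inside HOXB6, at 48598406 to 48598837. HOXB1, a hindbrain gene, had 1200 bp with daunorubicin and 239 bp in untreated cells, with end peaks scoring 53 and 18. HOXB2, also of the hindbrain, had 3640 bp with daunorubicin and 3471 bp in untreated cells, and 1 untreated peak there lay under 2 daunorubicin peaks. HOXB3 held the highest HOXB peak with daunorubicin, at 48554814 to 48557037, scoring 168 (91.7%), against 114 (74.0%) for its untreated partner. Its end peak, at 48547899 to 48548264 and called with daunorubicin only, lay 606 bp beyond its 3′ end. HOXB4, which expands blood stem cells when given in excess, had 4566 bp with daunorubicin and 4612 bp in untreated cells, and at the stricter score 4566 bp and 3574 bp in the same order.

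HOXB6 had 2843 bp with daunorubicin and 2583 bp in untreated cells, with best scores of 146 (89.0%) and 83 (68.0%). It had 1952 bp with daunorubicin and 2583 bp in untreated cells at the stricter score, and 2384 bp and 2583 bp with equal numbers, so its direction turned under both. A further peak inside it, at 48598406 to 48598837, was called with daunorubicin only and scored 34. HOXB7 had 3661 bp with daunorubicin and 3800 bp in untreated cells, with scores of 126 (85.5%) and 163 (80.9%). HOXB9 held the highest untreated HOXB peak, which scored 210 (86.6%), against 117 (83.9%) for its daunorubicin partner, while its marked length was 4309 bp with daunorubicin and 2738 bp in untreated cells. HOXB13, a prostate gene set apart from the rest of the cluster, was marked in both libraries by a low peak, scoring 36 (45.1%) with daunorubicin and 26 (29.7%) in untreated cells, over 1149 bp and 944 bp, and neither passed the stricter score. The remaining HOXB body regions with daunorubicin only and within 5 kb of a member lay at 48532421 to 48532723, near HOXB1 (score 25), and at 48631004 to 48631566, near HOXB9 (score 18).

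HOXC4, HOXC5 and HOXC6 have the same annotated start, so they share their values. Their marked length was 3274 bp with daunorubicin and 3069 bp in untreated cells. The peak just past the start scored 213 (95.6%) at 54017076 to 54019002 with daunorubicin and 260 (91.4%) at 54017173 to 54018951 in untreated cells, where it was the highest of the cluster. HOXC8, which patterns the trunk skeleton in mice, had 1907 bp with daunorubicin and 1451 bp in untreated cells, and at the stricter score 694 bp and 1038 bp in the same order. HOXC9, a gene of thoracic motor neurons in mice, had 2624 bp with daunorubicin and 2462 bp in untreated cells, with scores of 130 (86.3%) and 184 (83.5%). HOXC10 had 2287 bp with daunorubicin and 1963 bp in untreated cells, with scores of 111 (82.7%) and 41 (48.9%), and held the only region of the HOXC body with daunorubicin only, at 53987723 to 53988022 (score 34). HOXC13, a hair and nail gene, had 2958 bp with daunorubicin and 2806 bp in untreated cells. Above HOXC13 lay the highest HOXC peak with daunorubicin, at 53948757 to 53950537, scoring 246 (97.3%), against 145 (78.5%) in untreated cells. The HOXC genes with an end peak were thus the same 7 in both libraries.

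In HOXD the peaks of daunorubicin only sat between HOXD12 and HOXD10. The one at 176116101 to 176116623, which reaches into the HOXD10 promoter printed above, scored 42 (51.6%) and lay within 1 kb of both HOXD10, a gene of hindlimb motor neurons in mice, and the 3′ end of HOXD11, a gene of the forearm. HOXD10 had 523 bp with daunorubicin and 0 bp in untreated cells, and HOXD11 had 1798 bp and 0 bp in the same order. With equal numbers HOXD11 had 523 bp with daunorubicin, and at the stricter score both genes had 0 bp in both libraries. The others, at 176104006 to 176105071 near HOXD12 and at 176109189 to 176109397 in HOXD11, scored 21 and 26. HOXD13, the digit gene whose mutation fuses fingers in people, had 2440 bp with daunorubicin and 2429 bp in untreated cells. The peak 249 bp beyond it with daunorubicin scored 203 (94.9%), against 131 (76.6%) in untreated cells, the highest of the HOXD body in each library.

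HOXD8 had 1189 bp with daunorubicin and 457 bp in untreated cells, with scores of 31 (38.2%) and 20 (17.3%). With equal numbers of peaks it had 0 bp with daunorubicin and 457 bp in untreated cells. HOXD1 had 970 bp with daunorubicin and 481 bp in untreated cells, with scores of 33 (41.0%) and 28 (33.3%), and with equal numbers 0 bp and 481 bp in the same order. HOXD4 had 876 bp with daunorubicin and 1089 bp in untreated cells, and HOXD3 had 2033 bp and 2315 bp in the same order. At the stricter score HOXD3 had 1713 bp with daunorubicin and 1089 bp in untreated cells. At HOXD4 and HOXD3, 1 untreated peak lay under 2 daunorubicin peaks, as at HOXB2 and HOXB6. In all, 5 of 51 untreated HOX peaks (9.8%, Wilson interval 4.26 to 21.0) were split in this way, against 4.28% of all untreated peaks. Those not named here lay in the lower HOXD flank. The reverse, 2 untreated peaks under 1 daunorubicin peak, occurred at HOXC8 and in the lower HOXB flank (48491098 to 48493444).

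**Figure D4:**
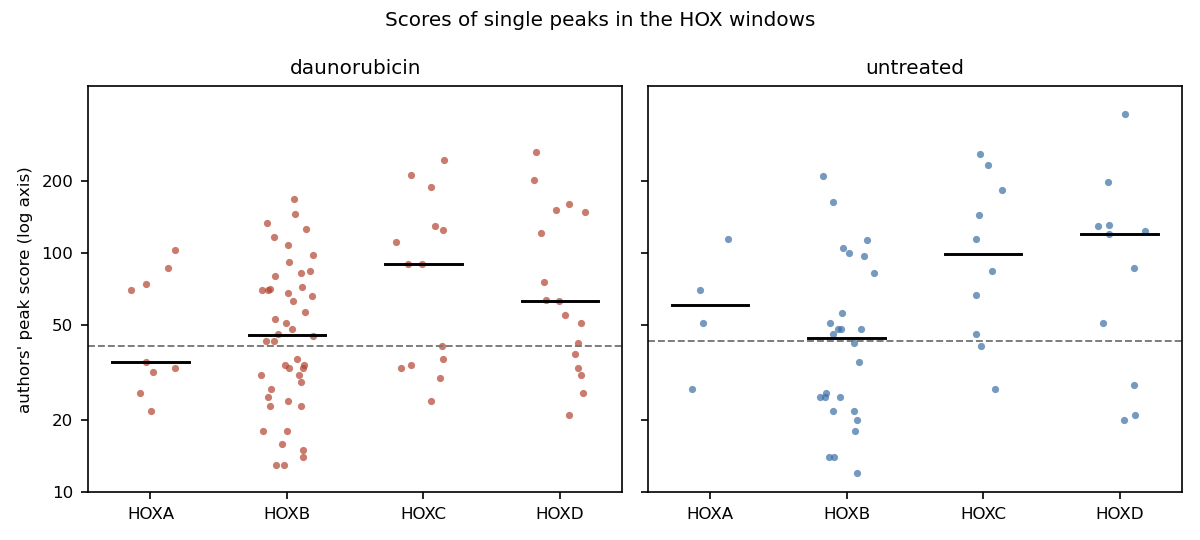
Score of every peak in the HOX windows on a log axis, by cluster, with daunorubicin on the left and untreated on the right. Each point is a peak, each bar is the median of the cluster and the dashed line is the median of the whole list. HOXC lies highest with daunorubicin, with a median of 90, and HOXD highest in untreated cells, with a median of 120.

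Within each list the clusters ranked differently by score than by covered length. With daunorubicin the median scores were 35 in HOXA, 45.5 in HOXB, 90 in HOXC and 63 in HOXD. In untreated cells they were 60.5 in HOXA, 44 in HOXB, 99.5 in HOXC and 120 in HOXD. HOXB, with the most peaks, thus had a median close to that of its whole list in both libraries, and HOXC had few but high peaks. Of HOX peaks, 51 of 86 with daunorubicin and 32 of 51 in untreated cells scored at or above the median of their own list.

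The genes known to act with or on the HOX clusters were taken as lists. Beside their counts stand the shares of coding genes with an end peak, 62.5% with daunorubicin and 58.4% in untreated cells, and, of coding genes marked in either library, the 77.9% longer with daunorubicin and 22.0% shorter. Of 9 cofactor genes of the TALE family, whose proteins bind DNA together with HOX proteins, 7 had an end peak in each library, and marked length was longer with daunorubicin at 6 and shorter at 3. MEIS1, a partner of HOXA9 in leukaemia, had 8732 bp with daunorubicin and 2781 bp in untreated cells. Of 12 activators, which include KMT2A and the CDX genes, 10 had an end peak with daunorubicin and 9 in untreated cells, and marked length was longer with daunorubicin at 10 and shorter at 0. CDX2, an activator of HOX genes in the embryo, made the difference, with 746 bp with daunorubicin and 0 bp in untreated cells. All 17 Polycomb genes had an end peak in both libraries, and marked length was longer with daunorubicin at 11 and shorter at 6, with 8893 bp with daunorubicin and 4443 bp in untreated cells at EZH2, the H3K27 methyltransferase. Of 24 non-coding RNA genes within the clusters, 14 had an end peak with daunorubicin and 12 in untreated cells. The difference was HOTTIP, by a peak scoring 35 (43.9%), and MIR196A1, by a peak scoring 18 (12.3%), both below the stricter score. Marked length at the non-coding RNA genes was longer with daunorubicin at 18 and shorter at 5. Over genes marked in either library the median differences in marked length were 1144 bp for cofactors, 514.5 bp for activators, 543 bp for Polycomb genes and 206 bp for the non-coding RNAs, beside the 421 bp of coding genes given above.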

How the data were processed

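The 4 libraries were assigned to groups by antibody and by treatment. The tools named, per the submitters' processing notes, were MACS2 2.1.1, Bowtie2 2.3.4.3 and deepTools 3.2.1, and the builds were hg19 and hg38. The chromosome and scaffold names of the peak lists are those of hg38. Each library has 1 list of peaks whose only value is a score, deposited by the authors. How peaks were called and how the score is made: not given in the sources used here. Ranks were taken within a list only. Scores of both libraries are printed side by side but are not on a known shared scale. The stricter filter used the same score in both lists.

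Starts were written 1-based. Peaks were placed on RefSeq GRCh38.p14 genes with Python 3.11.15, pandas 2.3.3 and numpy 2.4.6, and the overlap code was tested on simulated data against bedtools 2.31.1, with equal results in 4 of 4 measures. The plan was to use annotated starts. The gene table gives no strand and the promoter table holds 20 of the 38 members, so either annotated end was used for all genes, and starts were added as alternatives after seeing the data, taking the strand of the cluster for members outside the table. No tests were run, since each group has 1 library, and read depth is unknown.

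Members and lists were chosen with earlier results of these data known. Values are printed for members with an end peak in either library, the highest peak of each cluster, body regions within 5 kb of a member called in 1 library, the highest peaks of flanks where the nearest gene is no HOX gene, and non-coding RNAs and cofactors marked in 1 library. MEIS1, EZH2, CDX2, the microRNA genes and the other values named were chosen after they were seen. Alternatives were a stricter score, equal numbers of peaks, removal of peaks on input peaks, other flanks, overlaps and distances.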

Additional observations from a re-analysis of the deposited data

How the results depend on the processing

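No paired analysis was possible because each group has 1 library. Keeping peaks that score at least the median of the untreated list, 43, left 49 HOX peaks with daunorubicin and 32 in untreated cells, covered-length differences (daunorubicin minus untreated) of 1001 bp in HOXA, 1709 bp in HOXC and 1142 bp in HOXD, 30 shared regions, 16 with daunorubicin only, and 20 members with longer marking. With equal numbers of peaks the differences were 1068 bp in HOXA, 8937 bp in HOXB and -179 bp in HOXD, against 3970, 16323 and 3255 bp in the full lists, so HOXD turned. There were then 14 regions with daunorubicin only and 8 in untreated cells only, and 10 members with shorter marking. Without flanks there were 51 peaks with daunorubicin, differences of 5569 bp in HOXB and 1654 bp in HOXC, and 13 and 0 regions in 1 library only, since the flanks were left out.

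A peak covering an end itself was found at 12 members with daunorubicin and 8 in untreated cells, and at table starts, for 20 genes, at 11 and 8. Marking was longer at 19 members over the gene span alone and shorter at 0 with 50 kb on either side. With a reciprocal overlap of 50%, 15 untreated peaks had no partner. For the filters on peaks the cause was not tested. Removing peaks on input peaks could change no HOX count, since 0 input peaks lay in the HOX windows. Sequencing depth is unknown and limits every difference in peak number.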

Other observations

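The strongest HOXD peaks lay outside its genes. The peak over an end of MTX2, a mitochondrial gene in the upper HOXD flank, was the highest of any HOX window in each library. It scored 266 (98.0%) with daunorubicin and 382 (97.9%) in untreated cells. The highest peak in the lower flank lay 1841 bp from an end of EVX2, a homeobox gene next to HOXD13, with daunorubicin. In untreated cells it lay 1987 bp away, and the scores were 152 (89.8%) with daunorubicin and 198 (85.2%) in untreated cells. In the lower HOXB flank the highest daunorubicin peak, at 48477889 to 48479621, scored 134 (87.0%), against 48 (54.3%) for its untreated partner. The highest daunorubicin peaks of the upper flanks scored 71 (70.7%) in HOXB, 4960 bp from an end of CALCOCO2, and 30 (36.6%) in HOXC, 28883 bp from an end of SMUG1.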
